A study of Mus musculus with 6 samples.

Results

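The genes described here are the glyoxalases and the carbonyl and aldo-keto reductases that clear small reactive carbonyl compounds, in long-term hematopoietic stem cells (LT-HSCs) of mice given carnosine or saline. They were chosen by gene name, with a rule that uses no measured value: Glo1, Hagh, Park7, Akr1a1, Akr1b3, Akr7a5, Cbr1, Cbr3, Cbr4 and Adh5, which are 10 of the 55487 genes in the expression table. All 10 passed the filter on low counts, as did 15298 genes in all. RNA was measured by bulk sequencing in 3 libraries from carnosine-treated mice and 3 from saline-treated mice. All the mice were wild type and unirradiated, and the cells were sorted from bone marrow by the absence of lineage markers, Flk2 and CD34 and by the presence of Sca-1 and c-Kit. The sources used here do not give the dose and schedule of carnosine, the mouse strain, age or sex, or whether mice were pooled. Nor do they tie the libraries of 1 group to separate mice, so p-values measure the spread between these libraries, which may be technical.

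Sugar breakdown gives off methylglyoxal, a reactive dicarbonyl that attaches to proteins and DNA. Glutathione captures it, the glyoxalase Glo1 isomerises the adduct to S-lactoylglutathione, and the hydrolase Hagh releases D-lactate and returns the glutathione. Aldo-keto and carbonyl reductases turn aldehydes and ketones into alcohols with NADPH, and Adh5 oxidises the adduct of formaldehyde with glutathione, a route known from mouse genetics to protect hematopoietic stem cells together with Aldh2. Carnosine, which joins histidine to beta-alanine, also reacts with carbonyls directly. The comparison asks what carnosine changed in LT-HSC transcripts without irradiation.

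The libraries held 10442112 to 13251332 counts with carnosine and 10304539 to 13210166 counts with saline. In bulk RNA, fewer cells of a type and less RNA per cell cannot be told apart. All 11 stem cell markers passed the filter, Mecom among them higher with carnosine, with summed levels of 1128 to 1280 CPM (counts scaled to library size) with carnosine and 1137 to 1167 CPM with saline. RNA for the proteins excluded by the sort was present: Cd34 averaged 861 CPM with carnosine and 857 CPM with saline, and Flt3, which encodes Flk2, averaged 775 CPM with carnosine and 818 CPM with saline. Markers of other cells also differed between the groups. The 8 erythroid markers summed to 146 to 153 CPM with carnosine and 54.8 to 65.2 CPM with saline, with 5 of 8 higher. The 9 B and plasma cell markers summed to 686 to 949 CPM with carnosine and 544 to 626 CPM with saline, with Jchain higher and 3 lower. The 7 multipotent progenitor markers summed to 2452 to 2486 CPM with carnosine and 2823 to 2824 CPM with saline, with 4 of 7 lower. Erythroid and plasma cell transcripts were thus higher in sum with carnosine, and progenitor transcripts lower. Markers of neutrophils, monocytes, megakaryocytes, T and NK cells, and stromal and endothelial cells had 1 lower member each, and Cxcl12 of the stromal list was higher. Higher and lower for single markers mean an edgeR adjusted p under 0.05, which 17.9% of all genes tested passed. Among markers tested, 9.09% of 11 stem cell, 57.1% of 7 progenitor, 50% of 8 B and plasma cell and 62.5% of 8 erythroid markers passed. So did 20% of 5 neutrophil, 14.3% of 7 monocyte and 33.3% of 3 megakaryocyte markers. For T and NK cells it was 25% of 4, and for stromal and endothelial cells 40% of 5. The neutrophil markers summed to 107 to 123 CPM with carnosine, where Ly6g had no count, and to 142 to 164 CPM with saline. The monocyte markers summed to 171 to 182 CPM with carnosine and 199.6 to 210.1 CPM with saline, and the stromal and endothelial markers to 113 to 119 CPM with carnosine and 124 to 128 CPM with saline. The T and NK markers summed to 81.5 to 85.4 CPM with carnosine and 89.4 to 93.6 CPM with saline, and the megakaryocyte markers to 69.2 to 76.3 CPM with carnosine and 74.2 to 77.8 CPM with saline. The part of these lists in the results below was not tested.

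Of the 10 genes, 1 rose with carnosine and none fell. Akr1a1, the most abundant of them by count, was higher by 11.3%, and the other 9 did not pass the test. Over all genes tested, 17.9% passed in either direction, 9.51% as higher and 8.39% as lower (edgeR quasi-likelihood test, Benjamini-Hochberg adjusted p under 0.05), so 1 of 10 was near the background. The median log2 fold change of the 10 was 0.10, against 0.000925 over all genes, and 8 of the 10 had a positive value, against 50.2% of all genes. All but Cbr4 differed by less than 0.16 on the log2 scale, the median size of difference over all genes tested. The groups did not overlap for Akr1a1 and Adh5, both higher with carnosine. Over all genes, 38.7% did not overlap, 19.7% with carnosine higher and 19% with carnosine lower.

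**Figure D1:**
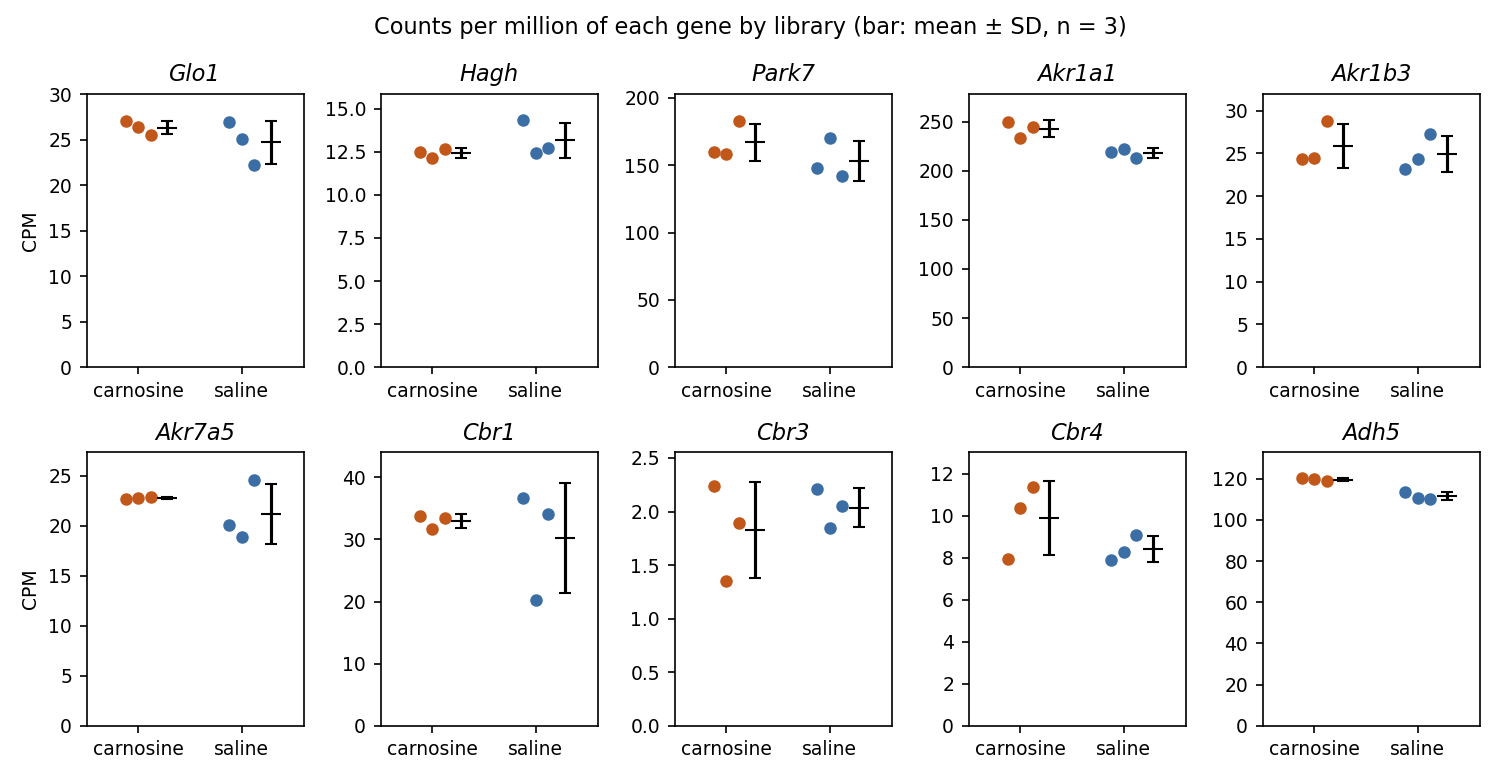
CPM of the 10 genes in each library (points, carnosine in orange and saline in blue, libraries 1 to 3 from left to right) with the mean ± SD of each group as a bar (n = 3). The carnosine libraries stand clear of the saline libraries for Akr1a1 and Adh5, and saline library 2 lies far below the others for Cbr1.

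Glo1, Hagh and Park7 did not pass the test. Glo1, the enzyme of the entry step, lies on chromosome 17 (30584936 to 30626871, minus strand, GRCm38) and had 27.0, 26.5 and 25.5 CPM in the carnosine libraries, against 26.9, 25.1 and 22.2 CPM in the saline libraries. The groups overlapped, since saline library 1 lay within the carnosine range. Glo1 averaged 26.3 ± 0.75 CPM with carnosine and 24.7 ± 2.38 CPM with saline (SD, n = 3 each), with a log2 fold change of 0.09 (95% interval −0.11 to 0.29, SE 0.085, edgeR adjusted p = 0.492). The interval leaves room for a difference from −7.11% to 22.5%, and the log2 fold change was 0.02 without saline library 3 and 0.16 without saline library 1. Hagh, the hydrolase of the step that follows, is on the same chromosome (24840143 to 24864450, plus strand). It had 12.5, 12.1 and 12.7 CPM with carnosine, against 14.3, 12.4 and 12.7 CPM with saline. Its groups overlapped and its log2 fold change was −0.08 (SE 0.092, edgeR adjusted p = 0.606), and −0.02 without saline library 1. Park7, which encodes DJ-1, a redox protein for which glyoxalase activity has been reported, was the second most abundant of the 10 by count. It had 160.2, 158 and 183 CPM with carnosine, against 148, 170.2 and 142 CPM with saline. Carnosine library 3 and saline library 2 were each the highest of their group, and the groups overlapped. The log2 fold change of Park7 was 0.13 (SE 0.081, edgeR adjusted p = 0.329), and was 0.06 without carnosine library 3 and 0.21 without saline library 2.

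Because Glo1 and Hagh act in sequence, their ratio was also taken within each library, where the scaling between libraries cancels. The FPKM ratio of Glo1 to Hagh was 0.345, 0.348 and 0.322 in the carnosine libraries, against 0.300, 0.322 and 0.278 in the saline libraries. The size of this ratio depends on the gene lengths behind FPKM, described below, so it does not show which gene is higher. The comparison between carnosine and saline does not depend on these lengths. The groups came within the last printed digit of each other without overlapping, but overlapped once the counts of a near-identical copy of Glo1, described next, were added to Glo1. The ratio averaged 0.338 ± 0.0142 with carnosine and 0.300 ± 0.0217 with saline (SD, n = 3 each), a difference of 0.18 on the log2 scale. The exact permutation test, two-sided, gave p = 0.1, the smallest value that 3 against 3 libraries allow. With the copy added, the difference was 0.15 and the exact p was 0.2. On average Glo1 was higher and Hagh lower with carnosine, and neither passed the test alone.

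Glo1 has a near-identical processed pseudogene, Glo1-ps, on chromosome 2 (35340409 to 35340963), which the table lists as a gene of its own with 1006 counts over the 6 libraries, 56.9% of the 1769 counts of Glo1. Its sequence differs from the 555 coding bases of Glo1 at 3 positions. Of all stretches of 100 bases in the Glo1 coding sequence, 61.6% occur unaltered in Glo1-ps, and of those of 150 bases, 44.6%. Reads that lie wholly in these stretches cannot be told apart by their own sequence. Transcript bases of Glo1 outside the coding sequence were not compared in this way. Glo1-ps had 15.4, 12.3 and 15.8 CPM with carnosine, against 13.9, 15.1 and 13.9 CPM with saline, and the groups overlapped (log2 fold change 0.02, edgeR adjusted p = 0.912). Summed, Glo1 and its copy averaged 40.8 ± 1.89 CPM with carnosine and 39.1 ± 2.60 CPM with saline (SD, n = 3 each; log2 fold change 0.07, edgeR adjusted p = 0.556).

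Akr1a1 encodes aldehyde reductase, which reduces a wide range of aldehydes and in mice makes the precursor of ascorbate. The gene lies on chromosome 4 (116636510 to 116651680, minus strand). It had 250.1, 233 and 245 CPM in the carnosine libraries, against 219, 223 and 213 CPM in the saline libraries. Every carnosine library was above every saline library. The mean was 243 ± 8.53 CPM with carnosine and 218 ± 5.03 CPM with saline (SD, n = 3 each), from 8674 counts with carnosine and 7379 with saline. The log2 fold change was 0.15 (SE 0.036, 95% interval 0.07 to 0.24, edgeR adjusted p = 0.0245), or 11.3% (interval 5.03% to 17.9%). Without carnosine library 1, carnosine library 3, saline library 1 or saline library 3 the adjusted p was 0.082, 0.0776, 0.0622 or 0.0761 in edgeR, and DESeq2 gave 0.136, so that no gene of the 10 passed. Over all alternatives its log2 fold change stayed between 0.13 and 0.18, with adjusted p-values of 0.0211 to 0.136.

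Akr7a5, another aldo-keto reductase, acts on succinic semialdehyde and on the dialdehyde of aflatoxin. It had 22.7, 22.8 and 22.9 CPM with carnosine, against 20.1, 18.8 and 24.6 CPM with saline. The carnosine libraries were almost equal, with a coefficient of variation of 0.377%, and lay inside the saline range, whose coefficient was 14.2%. The log2 fold change was 0.10 (SE 0.105, edgeR adjusted p = 0.542), and was 0.03 without saline library 2 and 0.23 without saline library 3. Akr1b3, the mouse aldose reductase that turns glucose into sorbitol, had 24.3, 24.4 and 28.8 CPM with carnosine, against 23.2, 24.4 and 27.2 CPM with saline. Library 3 was the highest in both groups, and the groups overlapped along most of their range. The log2 fold change of Akr1b3 was 0.05 (SE 0.098, edgeR adjusted p = 0.756).

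Near-identical copies of Akr1b3 together took more counts than the gene itself. Akr1b3, on chromosome 6 (34302434 to 34317478, minus strand), took 1778 counts over the 6 libraries. Among its processed pseudogenes, Gm6644 on chromosome 1 (55444074 to 55445024) had 2910 counts, Gm12138 on chromosome 11 (40672906 to 40673856) had 1799, and Gm6736 on chromosome 12 (13455023 to 13455970) had 1556. With 96 counts of Gm38056, an entry that overlaps Gm6644, the copies reached 6361 counts, 358% of those of the gene itself. The alignments had 3 mismatches in 951 bases for Gm6644, 9 in 951 for Gm12138 and 5 in 948 for Gm6736. Coding bases 586 to 675 of Akr1b3 are shown with the matching stretches, from the GENCODE M21 transcripts of GRCm38, as a region where all 3 pseudogenes can be told from the gene; capitals mark the positions at which any of them differs.
Akr1b3: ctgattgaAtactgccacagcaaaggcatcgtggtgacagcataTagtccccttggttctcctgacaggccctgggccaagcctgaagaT
Gm6644: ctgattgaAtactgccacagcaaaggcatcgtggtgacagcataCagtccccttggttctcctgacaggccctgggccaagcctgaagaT
Gm12138: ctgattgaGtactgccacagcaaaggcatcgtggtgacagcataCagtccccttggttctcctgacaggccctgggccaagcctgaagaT
Gm6736: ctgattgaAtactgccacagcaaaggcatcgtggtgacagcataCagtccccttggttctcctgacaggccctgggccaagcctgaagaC
Within the coding sequence, a read or its mate must span a position that differs to be told from a given copy. Transcript bases outside the coding sequence were not compared in this way. Of all stretches of 100 bases in the coding sequence, 76.5% occur unaltered in at least 1 copy, and of those of 150 bases, 67.0%.

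Gm6644 had 43.7, 44.4 and 44.4 CPM in the carnosine libraries, against 38.9, 41.2 and 38.4 CPM in the saline libraries. These groups did not overlap, and the log2 fold change was 0.16 (SE 0.054, edgeR adjusted p = 0.0794), short of the threshold. Gm12138 and Gm6736 had overlapping groups, with edgeR adjusted p-values of 0.802 and 0.478. Summed, Akr1b3 and its copies had 121, 115 and 127 CPM with carnosine, against 109.9, 116 and 113 CPM with saline, and Akr1b3 held 21.8% of the sum. The groups overlapped in carnosine library 2 and saline library 2, and the log2 fold change was 0.10 (SE 0.047, edgeR adjusted p = 0.203). For the principal transcripts of the other 8 genes, Akr1a1 and Adh5 included, no match of at least 95% identity over 200 bases was found. The search covered the annotated transcripts of other genes in GENCODE M21. Genome sequence outside annotated transcripts was not searched.

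**Figure D2:**
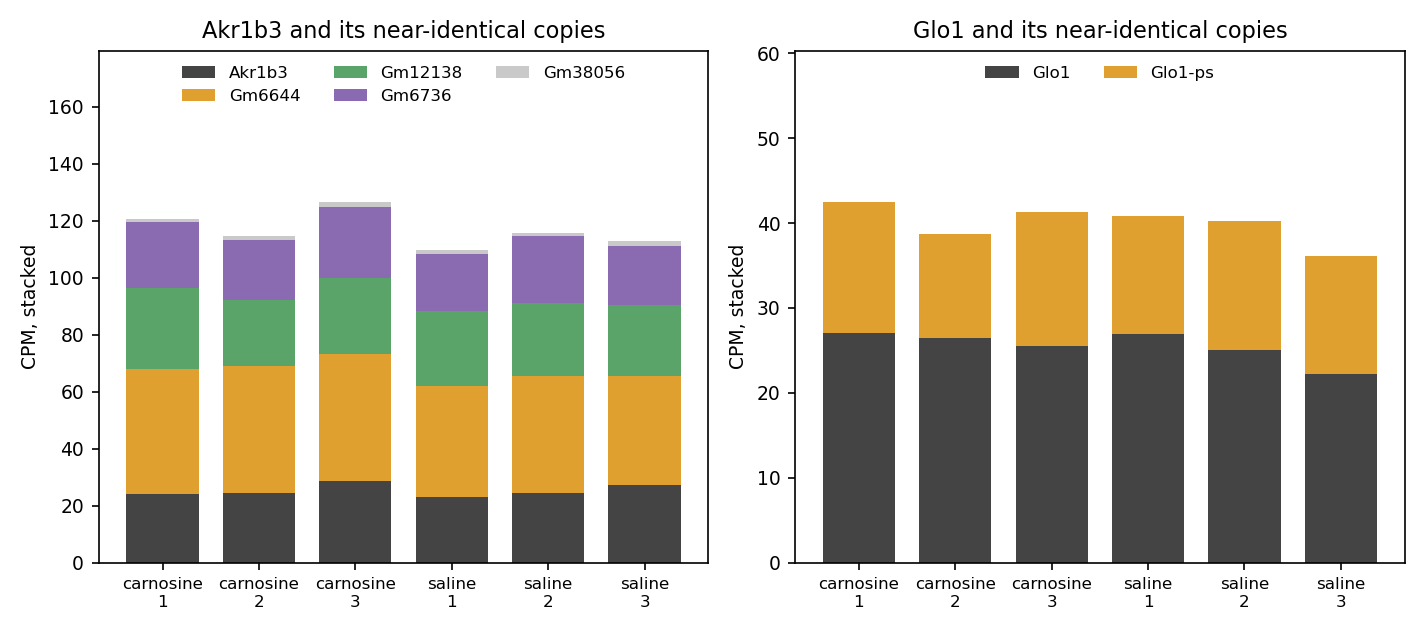
Stacked CPM of Akr1b3 (left) and Glo1 (right) with their near-identical copies in each library, carnosine libraries to the left of saline libraries. Akr1b3 itself, in dark grey, is the lesser part of its stack in every library, and Glo1 is the greater part of its own.

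The carbonyl reductases of the short-chain dehydrogenase family did not pass the test either. Cbr1 and Cbr3 lie near each other on chromosome 16 (93605853 to 93610505 and 93683215 to 93690990, both plus strand). Cbr1, which reduces quinones, prostaglandins and anthracyclines, had 33.8, 31.7 and 33.4 CPM with carnosine, against 36.7, 20.2 and 34.0 CPM with saline. Saline library 2 was far below all other libraries, which span 31.7 to 36.7 CPM. It was 0.78 lower on the log2 scale than the other saline libraries, and 71 of 8322 genes with a mean of at least 20 CPM (0.853%) were as far from them in that library. Across all genes the library did not stand apart, with a median deviation of 0.0949 on the log2 scale, against 0.0957 for saline library 1 and 0.0897 for saline library 3. Cbr1 had a log2 fold change of 0.12 with an SE of 0.196 (edgeR adjusted p = 0.716), which turned to −0.10 without saline library 2. Cbr3, a relative of Cbr1 with a narrower set of substrates, was the least counted of the 10, with 66 counts in all with carnosine and 69 with saline. It had 2.24, 1.35 and 1.90 CPM with carnosine, against 2.21, 1.84 and 2.05 CPM with saline. Its interval ran from −38.2% to 32.7%, and its log2 fold change of −0.14, with an SE of 0.236 (edgeR adjusted p = 0.730), became 0.02 without carnosine library 2. Cbr4, a subunit of the mitochondrial ketoacyl reductase of fatty acid synthesis, had 7.96, 10.4 and 11.4 CPM with carnosine, against 7.89, 8.25 and 9.10 CPM with saline. Carnosine libraries 2 and 3 were above all saline libraries and carnosine library 1 was not. Its log2 fold change of 0.23 had an SE of 0.153 (edgeR adjusted p = 0.332), and was 0.12 without carnosine library 3 and 0.37 without carnosine library 1.

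Adh5 encodes the glutathione-dependent formaldehyde dehydrogenase, which also reduces S-nitrosoglutathione, and lies on chromosome 3 (138443093 to 138455499, plus strand). It had 120.3, 119.7 and 119 CPM in the carnosine libraries, against 114, 111 and 110.2 CPM in the saline libraries. Every carnosine library was above every saline library, with a coefficient of variation of 0.684% with carnosine and 1.76% with saline. The mean was 119.6 ± 0.818 CPM with carnosine and 112 ± 1.97 CPM with saline (SD, n = 3 each). The log2 fold change was 0.10 (SE 0.034, 95% interval 0.02 to 0.18), or 7.21%. Its unadjusted p was 0.0196 in edgeR, and its adjusted p of 0.0832 did not pass. Of all genes tested, 32.9% had an unadjusted p under 0.05, and 16.8% had one and were higher with carnosine.

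**Figure D3:**
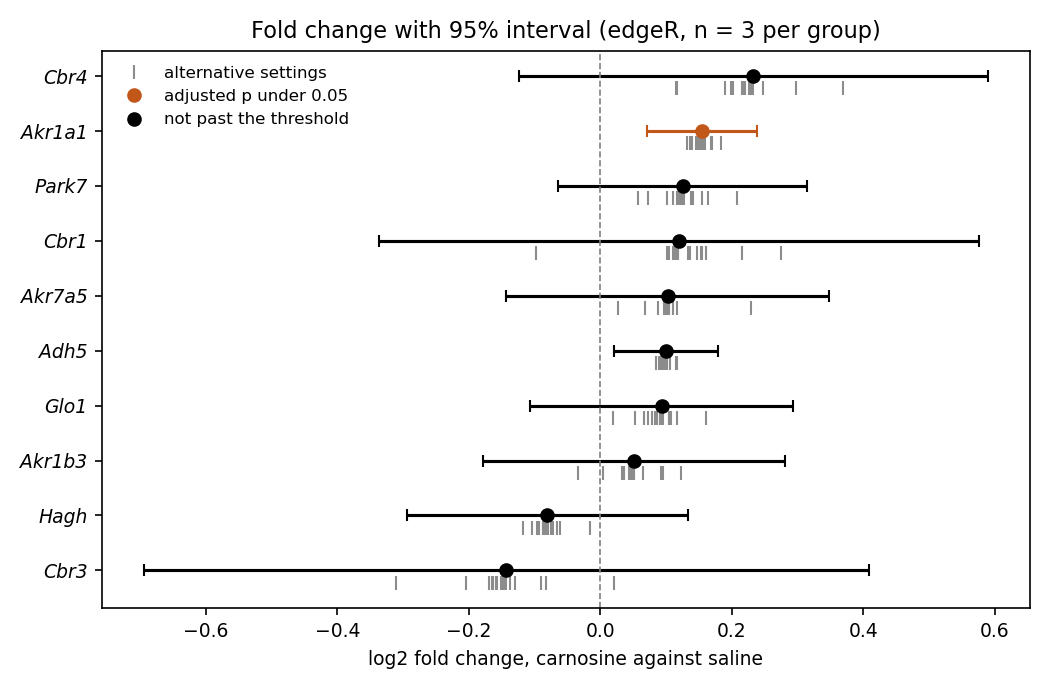
Log2 fold change of each gene, carnosine against saline, with its 95% interval from edgeR (n = 3 libraries per group) and, as grey ticks, the value under each alternative setting. Akr1a1, in orange, passed the adjusted threshold, and the intervals of Cbr1, Cbr3 and Cbr4 are the widest.

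The promoter windows of the pair whose libraries did not overlap are shown. They are RefSeq windows on GRCm38.p6, from 250 bases before to 50 after an annotated start, 5′ to 3′ on the strand of the gene, with motif matches in capitals. The Akr1a1 window is chr4:116651625-116651924, minus strand, and the Adh5 window chr3:138442843-138443142, plus strand.
Akr1a1: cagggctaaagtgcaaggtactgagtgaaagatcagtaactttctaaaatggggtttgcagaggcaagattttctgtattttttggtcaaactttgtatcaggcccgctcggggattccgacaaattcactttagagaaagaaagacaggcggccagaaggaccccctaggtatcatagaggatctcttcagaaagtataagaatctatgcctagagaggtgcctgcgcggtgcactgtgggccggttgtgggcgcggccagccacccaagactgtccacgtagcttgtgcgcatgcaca
Adh5: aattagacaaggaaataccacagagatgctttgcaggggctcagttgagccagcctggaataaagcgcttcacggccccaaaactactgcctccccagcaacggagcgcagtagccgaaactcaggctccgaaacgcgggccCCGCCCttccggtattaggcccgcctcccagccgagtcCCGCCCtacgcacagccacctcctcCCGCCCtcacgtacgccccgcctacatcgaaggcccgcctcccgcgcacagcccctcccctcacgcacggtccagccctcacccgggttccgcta
Both strands were searched for the GC box GGGCGG, the CCAAT box CCAAT, the TATA box TATAAA, the antioxidant response element core TGACNNNGC and the E box CACGTG. The Akr1a1 window held none of these and 11 CpG sites. The Adh5 window held 3 GC boxes, all on the opposite strand, and 26 CpG sites, against a median of 7 over all windows. The window of another RefSeq start of Adh5, chr3:138436950-138437249, had 1 TATA box and no GC box. It lies wholly outside the Adh5 locus used for the counts, which starts at 138443093. Windows were found for 9 of the 10 genes, Akr1b3 being the exception. Hagh and Adh5 had more than 1 start each, which gave 11 windows. The windows of Hagh overlap and share a GC box and a CCAAT box. A GC box occurred in 7 of the 11 windows, of 6 of the 9 genes, and in 35.7% of all 32851 windows. A CCAAT box occurred in 4 of the 11 windows, of 3 of the 9 genes (37.4% of all windows). A TATA box occurred in 1 of the 11 (13.6%), the antioxidant core in 1, of Hagh (12.4%), and an E box in none (7.15%). A match is a match of letters only.

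The order of the 10 genes by level depended on the gene length used. The orders given here leave out the counts of near-identical copies. Akr1b3 held 21.8% of the sum with its copies and Glo1 63.7%, and the effect on their places was not tested. The deposited FPKM, fragments scaled to gene length and library total, put Akr1a1 at 71.2 with carnosine and 64.2 with saline, followed by Park7 at 41.4 with carnosine and 38.2 with saline, and Adh5 at 16.3 with carnosine and 15.3 with saline. Over all 6 libraries Akr7a5 (mean 11.02 FPKM), Cbr1 (7.04), Hagh (4.83), Akr1b3 (2.48), Glo1 (1.54), Cbr3 (1.09) and Cbr4 (1.07) came after them. The ranges over the libraries overlapped for Cbr1 and Hagh and for Cbr3 and Cbr4, and not for the other neighbours. The length behind each FPKM, computed from count, FPKM and library total, equalled the summed length of every distinct annotated exon within 1 base for all 10 genes. It did so for 97.5% of 12785 genes with over 20 counts in every library. That sum counts a base as often as exons overlap on it, and for Glo1 it was 16560 bases, 18.5 times the 895 bases of its principal transcript. For Akr1b3 it was 10224 bases, 7.37 times its principal transcript, and for Cbr3 1765 bases, 1.51 times.

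Per kilobase of principal transcript, Park7 had 184 CPM with carnosine and 169 CPM with saline, and Akr1a1 171 CPM with carnosine and 154 CPM with saline, and their ranges overlapped. Adh5 was next with 74.6 CPM per kilobase with carnosine and 69.6 with saline. Glo1 moved to the fourth place, with 29.4 CPM per kilobase with carnosine and 27.6 with saline, while Hagh had 10.4 with carnosine and 11.1 with saline. On this scale Glo1 was thus above Hagh, and on FPKM it was below. Cbr1 (mean over all libraries 25.6), Akr1b3 (18.3) and Akr7a5 (17.1) followed, each overlapping the gene just above it; Akr7a5 did not overlap Hagh below it. Cbr4 (2.13) overlapped Cbr3 (1.65). Since a gene has 1 length in all libraries, the comparison between carnosine and saline does not depend on it.

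**Figure D4:**
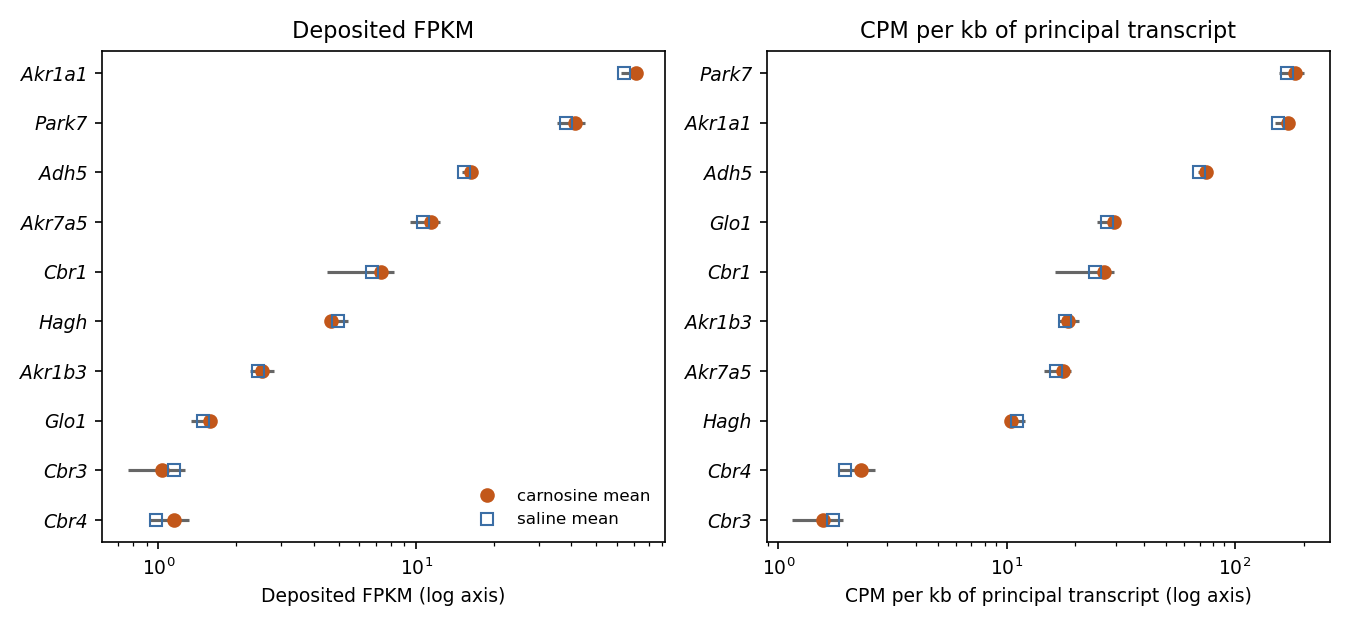
Level of each gene as deposited FPKM (left) and as CPM per kilobase of its principal transcript (right), on log axes; circles are carnosine means, squares saline means (n = 3 each), and grey lines span the lowest to the highest of the 6 libraries. Glo1 is in the eighth place on the left and the fourth on the right.

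Together the 10 genes took 0.0638% to 0.0680% of all counts with carnosine and 0.0596% to 0.0614% with saline. Their CPM summed to 661, 641 and 683 in the carnosine libraries, against 612, 615 and 597 in the saline libraries, and the groups did not overlap. The sum averaged 662 ± 21.0 CPM with carnosine and 608 ± 9.73 CPM with saline (SD, n = 3 each), a log2 ratio of 0.12. Akr1a1, Park7 and Adh5 held 80.03% of it with carnosine and 79.5% with saline. These 3 genes summed to 511 to 546 CPM with carnosine and 465 to 504 CPM with saline, without overlap. The other 7 summed to 132 ± 3.92 CPM with carnosine and 125 ± 11.9 CPM with saline. For those 7 the groups overlapped, at 129 to 137 CPM with carnosine and 111 to 132 CPM with saline.

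Among 17 partners of the methylglyoxal route (its source, glutathione supply, glyoxalase relatives, and repair and sensing of glycated proteins), 16 were tested, 3 rose and 1 fell, with a median log2 fold change of −0.04. Tpi1, the triose phosphate isomerase whose substrates give off methylglyoxal, rose to 232 ± 5.34 CPM with carnosine, against 191 ± 10.7 CPM with saline (log2 fold change 0.28, edgeR adjusted p = 0.00593). Gsr, which regenerates reduced glutathione, rose to 78.9 ± 3.15 CPM with carnosine, against 63.1 ± 3.56 CPM with saline (0.32, adjusted p = 0.00912). Gclc, the catalytic subunit of the rate-limiting enzyme of glutathione synthesis, had a log2 fold change of 0.18 (edgeR adjusted p = 0.0463). Fn3k, a kinase that removes sugars bound to proteins, fell to 1.24 ± 0.184 CPM with carnosine, against 2.27 ± 0.329 CPM with saline (−0.86, edgeR adjusted p = 0.0366). Tpi1 and Gsr stayed called without any 1 library, and Gclc and Fn3k were lost without each of the 6 in turn, which left 2 calls. Gclc was also lost with upper quartile scaling, with library totals only, with no filter and by DESeq2, and Fn3k with no filter and by DESeq2. Copies of these genes were not searched for.

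Of 15 genes of formaldehyde clearance and crosslink repair, the processes around Adh5, 2 rose and 1 fell, with a median log2 fold change of 0.10. Mthfd1, a folate enzyme that handles formaldehyde-derived carbon units, rose to 163 ± 2.65 CPM with carnosine, against 141 ± 0.32 CPM with saline (0.21, edgeR adjusted p = 0.00392). Fancd2, the central ubiquitinated protein of Fanconi anemia repair, rose to 55.4 ± 3.14 CPM with carnosine, against 43.9 ± 3.49 CPM with saline (0.34, adjusted p = 0.0216). Fancg, of the core complex upstream of it, fell to 26.8 ± 0.645 CPM with carnosine, against 32.9 ± 1.06 CPM with saline (−0.30, adjusted p = 0.016). Fancd2 was lost without carnosine library 1 or 3 or saline library 1 or 3, the last of which brought in Fancm, and Fancg without carnosine library 1 or saline library 2 or by DESeq2. Aldh2, the mitochondrial partner of Adh5, was by far the most abundant of the list, with 669 ± 12.9 CPM with carnosine and 645 ± 29.9 CPM with saline (0.05, edgeR adjusted p = 0.354). Esd, which hydrolyses the product of Adh5, had 45.4 ± 5.11 CPM with carnosine and 44.2 ± 3.06 CPM with saline (adjusted p = 0.814).

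Of 34 further carbonyl, aldo-keto and alcohol reductases, 33 were found by symbol (Hsd17b8 was not) and 17 were tested. Among those tested, 3 rose and none fell, with a median log2 fold change of 0.18. Sord, which turns the sorbitol made by Akr1b3 into fructose, rose to 106 ± 4.16 CPM with carnosine, against 90.5 ± 2.65 CPM with saline (0.23, edgeR adjusted p = 0.0136). Akr1c13, a hydroxysteroid dehydrogenase, had 34.9 ± 2.82 CPM with carnosine and 28.6 ± 0.858 CPM with saline (0.29, edgeR adjusted p = 0.0383). Dhrs4, a carbonyl reductase that acts on retinal, had 45.8 ± 4.53 CPM with carnosine and 37.3 ± 1.05 CPM with saline (0.30, edgeR adjusted p = 0.0431). Dhrs3, a retinaldehyde reductase, had the next smallest p, with 19.5 ± 0.55 CPM with carnosine and 23.6 ± 1.93 CPM with saline (−0.28, edgeR adjusted p = 0.0561). Sord stayed called without any 1 library, Akr1c13 was lost without each of the 6 in turn, and Dhrs4 was kept only without carnosine library 1. DESeq2 kept Sord alone, and Dhrs3 passed as lower with upper quartile scaling and without saline library 1. The shares called in the 3 lists, 25%, 20% and 17.6%, stand beside 17.9% over all genes.

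**Figure D5:**
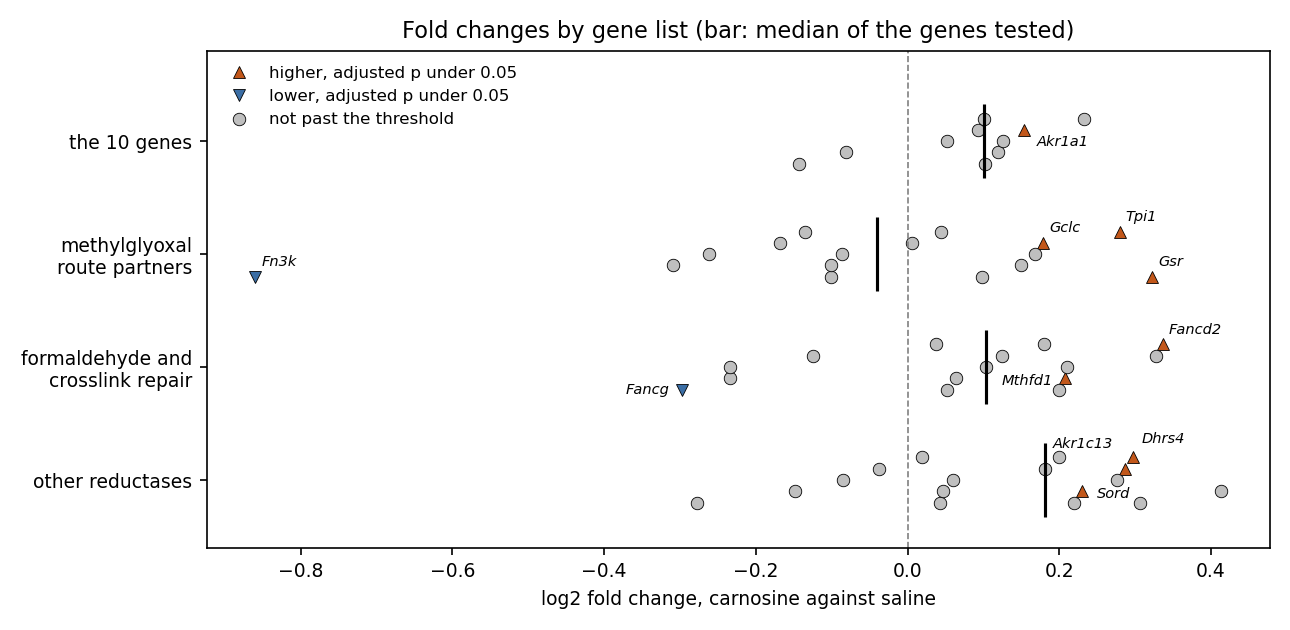
Log2 fold change, carnosine against saline, of every tested gene of the 10 and of 3 surrounding lists; triangles passed the edgeR test, circles did not, and bars are list medians (0.10 for the 10 genes, then −0.04, 0.10 and 0.18). The 10 genes lie between −0.14 and 0.23, and Fn3k, at −0.86, is the farthest from 0.

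The genes whose pattern over the 6 libraries was most like that of Glo1 were Ssh1, Pomgnt1 and Fut11, with root mean square differences of centred log2 CPM of 0.0257, 0.0275 and 0.0296, against a median of 0.155 over 11892 genes compared. For Akr1a1 they were Psmb4, Ctnna1 and Mrpl34, with 0.0149, 0.0157 and 0.0164, against a median of 0.15. These genes were picked for their likeness, so their own differences are not given as results. These likenesses are descriptions over 6 libraries.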

How the data were processed

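RNA of sorted mouse LT-HSCs was measured by poly-A selected, stranded, paired-end sequencing of samples with an RNA integrity number above 7, per the labels' protocols. Tools named without role in the submitters' processing notes are edgeR, StringTie, HISAT2 and CASAVA 1.8, with the build GRCm38. Strand setting, read length, annotation release and treatment of reads with several matches are not stated in these sources. For every gene of a library, the authors deposited a raw count and an FPKM value, per the file headers. Groups came from the sample titles.

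Counts of 10304539 to 13251332 per library were scaled by TMM (factors 0.998 to 1.003), filtered with filterByExpr and tested across all genes with the quasi-likelihood test of edgeR 4.0.16 (R 4.3.3). The test was two-sided, with p adjusted by Benjamini-Hochberg and a threshold of 0.05. CPM are on the TMM scale. A count of 3, the limit that a count of 0 allows, is 0.227 to 0.291 CPM and covers counting error only. Within groups, no libraries agreed within counting noise (chi-square per degree of freedom 5.08 to 6.26). The scripts were tested on simulated data. There, 2 of 49 genes changed by 0.15 on the log2 scale were recovered, and 23 of 50 changed by 0.5. Far fewer genes changed in the simulation than were called in these data, so these shares do not carry over directly.

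Exon lengths and copies came from GENCODE M21, whose loci for all 10 genes equalled those in the table. Copies were found with BLAST+ 2.17.0 (95% identity, 200 bases), a limit set after the data were seen. The 10 genes and the lists were chosen with earlier results of these data known. The genes named were all 10, up to 4 genes with the smallest p in each list, up to 3 abundant markers, and the 3 nearest patterns of Glo1 and Akr1a1; others were named after their values were seen. Where a symbol had 2 rows (Aldoa), the row with more counts was used.

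Alternatives were DESeq2 1.42.0, limma-voom (limma 3.58.1), other scalings and filters, limma-trend on log2(FPKM + 1) or log2(FPKM + 0.1), a replicate block, each library left out, and, added after the data were seen, counts summed with copies. The stretch of Glo1 and its copy is not reported here.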

Additional observations from a re-analysis of the deposited data

How the results depend on the processing

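Of 162 recomputed log2 fold changes of the 10 genes, 153 kept their direction and their side of the threshold, 6 lost the call of Akr1a1 and 3 turned sign. For every gene but Akr1a1, that side means not passing. With 1 library left out, the log2 fold change ran over -0.0346 to 0.123 for Akr1b3 (negative without carnosine library 3), −0.10 to 0.27 for Cbr1 (negative without saline library 2) and -0.31 to 0.0208 for Cbr3 (positive without carnosine library 2). The cause was not tested. Genes called over all, 2738 in the main test, were 1548 by DESeq2, 1756 with a replicate block, and 1753 to 1892 with 1 library left out. Called among the 10 genes, 1 in the main test, were 0 by DESeq2, 0 with the replicate block, and 0 to 1 with 1 library left out. Partners of the methylglyoxal route, 4 in the main test, had 2 by DESeq2, 2 with no filter, 2 with the block, and 2 to 2 with 1 library left out. Formaldehyde clearance and crosslink repair, 3 in the main test, had 1 to 3 with 1 library left out, not always of the same genes, and lost Fancd2 with the block. Other reductases, 3 in the main test, had 1 by DESeq2, 1 with the block, and 1 to 2 with 1 library left out. The replicate numbers did not pair the libraries (correlations of same-numbered deviations −0.05, −0.05 and 0.02), and with the block Akr1a1 had an adjusted p of 0.065. Adh5 stayed short of the threshold in every alternative, with adjusted p-values of 0.0742 to 0.463. With 3 libraries a group and a median SE of 0.10 over all genes on the log2 scale, and with under 30 counts per library for Cbr3, the number of libraries and the counts limit the precision.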

Other observations

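Several relatives of the 10 genes were at or near the floor in these LT-HSC libraries. Akr1c18, Akr1c20, Akr1c21, Akr1d1, Adh4 and Adh7, of steroid, retinol and alcohol metabolism, had no count in any of the 6 libraries, which allows up to 0.227 to 0.289 CPM per library with carnosine and 0.227 to 0.291 CPM with saline. The glyoxalase relative Glod5 had none either. Adh1 averaged 0.101 CPM with carnosine and 0.250 CPM with saline, and Cbr2 0.385 CPM with carnosine and 0.310 CPM with saline. Of Adh1, Adh4, Adh5 and Adh7, Adh5 alone passed the filter on low counts.

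The Glo1 locus overlaps other annotated genes. On the same strand, 1700097N02Rik shares 90 exon bases with it and had 218 counts with carnosine and 157 with saline. On the opposite strand, Dnah8, which shares no exon bases, averaged 65.9 CPM with carnosine and 79.8 CPM with saline. Their part in the Glo1 counts was not tested.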
